A study of Mus musculus with 5 samples.

Results

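DNA methylation in mice carrying a K36M form of histone H3.3 was compared with that in mice carrying a K9M form, both given 2 mg/ml doxycycline in the drinking water. These groups hold 4 of the 5 libraries of the series, 2 K36M and 2 K9M, and were taken by the genotype in the sample titles. The fifth library is 1 unreplicated WT (wildtype) library, for which the labels mention no doxycycline, and it enters below only as a side value. The genotype labels describe each mutant histone as dominant negative at its lysine. They name no strain, age, sex, promoter or founder line, and what drives the mutant histone, and in which cells, is left unnamed. HSCs (hematopoietic stem cells) are given as the source, whereas the growth protocol has them sorted from peripheral blood. No expression was measured, so the labelled cell type could not be checked against its marker transcripts. Whether replicates are separate animals is not said. A p-value here reflects no more than counting error and the spread of these libraries, which may be technical.

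Histone H3.3 is the H3 variant laid down outside of DNA replication, at genes and at heterochromatin. A lysine-to-methionine change at lysine 36 or lysine 9 traps the enzymes that methylate that lysine and lowers its methylation on normal histones too. Methylated lysine 36 is bound by the de novo DNA methyltransferases DNMT3A and DNMT3B, and methylated lysine 9 marks heterochromatin and is bound by UHRF1, the partner of the maintenance methyltransferase DNMT1. In blood, DNA methylation at promoters and enhancers is removed and added as stem cells commit to lineages.

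Reduced representation bisulfite sequencing reads methylation at single CpGs in CpG-rich fragments cut around CCGG. The libraries listed 3411617 and 3446085 CpGs in K36M and 3441167 and 3356656 in K9M. K9M replicate 2 was deposited in another unit than the rest, so each value was rebuilt as a methylated count over a second count that follows read depth, then scaled to the plateau of its library, taken as the median ratio in the 20% of tiles with most methylation. This ratio at the plateau was 1.21, 1.26, 1.38 and 0.955, K36M libraries first. Values so scaled are called relative levels and given as a percentage, which can pass 100% and hides a change that scales a whole library. Because the rebuilt unit bears on K9M replicate 2, values against K9M replicate 1 alone are given beside the leading results. After a minimum second count of 10 in each of the 4 libraries, 1796069 autosomal CpGs remained, with medians of 34, 42, 34 and 44 per CpG, and 1656657 of them lay in 154250 tiles, windows of 1 kb that hold 3 or more. The 4 libraries are listed throughout in the order K36M replicate 1, K36M replicate 2, K9M replicate 1, K9M replicate 2.

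Positions are mm9, counted from 1. No annotation of that build was at hand, so start sites were placed by matching the CpG spacing of RefSeq promoter sequences (GRCm38.p6) to the listed CpG positions, which put 11722 genes in place. Exons, introns and untranslated regions were not annotated here, and distances run from the middle of a tile to the nearest placed start site, of which a gene can have several. The sequences below are the 250 bases upstream of 5 start sites inside tiles that were lower in K36M. They were chosen to show a blood receptor promoter, 2 further promoters with few CpGs and, with Hoxa5 and Hoxa6, a pair of neighbouring CpG-dense promoters. The measured CpGs of this pair lie at opposite ends of the methylation range. All sequences are written 5′ to 3′ on the gene's strand, and capitals mark CpGs measured in all 4 libraries. Epor lies upstream of its start at chr9:21768021-21768270 (minus strand), Vwa7 at chr17:35153274-35153523 (plus), Slc41a3 at chr6:90568990-90569239 (plus), Hoxa5 at chr6:52154587-52154836 (minus) and Hoxa6 at chr6:52158672-52158921 (minus).
Epor: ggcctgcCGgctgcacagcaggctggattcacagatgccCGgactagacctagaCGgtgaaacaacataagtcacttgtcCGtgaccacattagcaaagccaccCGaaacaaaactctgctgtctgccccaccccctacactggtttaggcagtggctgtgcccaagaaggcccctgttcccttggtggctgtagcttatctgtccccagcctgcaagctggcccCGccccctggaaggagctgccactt
Vwa7: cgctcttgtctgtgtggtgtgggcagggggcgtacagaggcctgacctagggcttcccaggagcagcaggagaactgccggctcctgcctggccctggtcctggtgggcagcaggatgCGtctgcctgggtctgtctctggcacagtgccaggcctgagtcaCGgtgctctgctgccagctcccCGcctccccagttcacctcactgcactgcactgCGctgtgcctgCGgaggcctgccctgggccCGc
Slc41a3: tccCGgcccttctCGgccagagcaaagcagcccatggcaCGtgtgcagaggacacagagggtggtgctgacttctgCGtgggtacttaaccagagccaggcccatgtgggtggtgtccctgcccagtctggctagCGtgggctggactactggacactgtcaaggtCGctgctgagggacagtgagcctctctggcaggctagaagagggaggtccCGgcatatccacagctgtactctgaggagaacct
Hoxa5: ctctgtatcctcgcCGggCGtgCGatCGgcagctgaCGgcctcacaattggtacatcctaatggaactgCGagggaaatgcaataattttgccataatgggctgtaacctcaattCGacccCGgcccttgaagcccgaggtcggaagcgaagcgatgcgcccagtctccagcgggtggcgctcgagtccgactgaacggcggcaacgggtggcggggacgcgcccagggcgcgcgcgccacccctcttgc
Hoxa6: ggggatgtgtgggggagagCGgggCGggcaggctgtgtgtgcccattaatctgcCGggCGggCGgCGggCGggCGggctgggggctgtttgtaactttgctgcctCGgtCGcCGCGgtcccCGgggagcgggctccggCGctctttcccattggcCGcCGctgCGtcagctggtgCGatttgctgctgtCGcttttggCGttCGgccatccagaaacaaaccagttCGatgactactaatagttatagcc

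Pooled over the whole genome the groups were close, and K36M lay lower than K9M in tiles at 10% to 100% in WT. The pooled level over all CpGs was 41.5% ± 0.25 (SD, n = 2) for the K36M libraries. For the K9M libraries it was 42.2% ± 0.0457 (SD, n = 2). The difference was -0.68 points, and the permutation p (exact, two-sided) was 0.333, the lowest value this design of 2 against 2 can reach. Its direction was not stable, at 0.116 points when the top 40% of tiles set the plateau and -1.42 points as a mean of CpG levels. Tiles were then sorted by their level in WT, which takes no part in the contrast. In tiles under 10% in WT the 4 libraries averaged 1.97%, 1.77%, 2.04% and 1.97%. In tiles at 20% to 40% in WT they averaged 25.8%, 25.5%, 31.2% and 31.8%, and at 40% to 60% they averaged 44.6%, 44.2%, 51.1% and 53.4%. In tiles at 60% to 80% in WT they averaged 68.8%, 69.4%, 73.7% and 79.0%. The class at 10% to 20% differed by -2.9 points. In the 27279 tiles at 80% to 90% in WT they averaged 83.5%, 85.4%, 86.8% and 93.2%, a difference of -5.55 points, and -2.37 against K9M replicate 1 alone. In tiles at 90% to 100% the difference was -2.74 points, and -1.16 against K9M replicate 1 alone. In the 27567 tiles at 100% or more in WT the 4 libraries averaged 98.0%, 96.9%, 97.4% and 98.2%. There the difference was -0.339 points, and 0.0473 against K9M replicate 1 alone. Each K36M library lay below each K9M library in all of these classes from 10% to 100%, and the K9M libraries were further apart from each other at 60% to 90% than at lower levels. Over all 19619 tiles at 20% to 80% in WT the K36M mean was 54.8% ± 0.136 (SD, n = 2) and the K9M mean 62.0% ± 2.61 (SD, n = 2). This difference was -7.13 points, again at the lowest exact permutation p of 0.333. Against K9M replicate 1 alone the difference in the same tiles was -5.28 points. It was below 0 on all 19 autosomes, from -5.81 to -8.38 points by autosome, and from -3.78 to -6.65 points against K9M replicate 1 alone. The median over all tiles was -1.47 points, and -0.23 without K9M replicate 2.

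**Figure D1:**
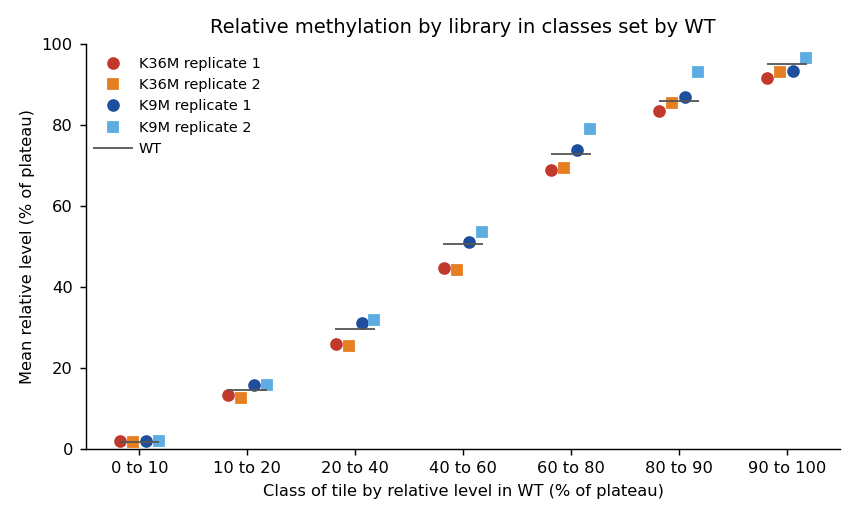
Mean relative level (y axis, percent of plateau) of 1 kb tiles in classes of WT level (x axis, percent), with 1 point per K36M or K9M library and a bar for WT. Tiles at 100% or more in WT are not drawn. The K36M points sit under the K9M points in the classes from 10 to 100, including those from 20 to 80 where the means over all such tiles were 54.8% and 62.0%, and the 4 points nearly coincide under 10.

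Called differences ran mostly in 1 direction. The call asked for 10 points or more between the group means and an adjusted p under 0.05, from a quasi-binomial model moderated with limma and Benjamini-Hochberg adjustment over all 154250 tiles. By this rule 2396 tiles were lower in K36M than in K9M, 1.55% of those tested, and 162 were higher, 0.105%. Among tiles at 20% to 80% in WT the shares were 8.45% lower and 0.54% higher. Without K9M replicate 2 the counts were 2233 lower and 198 higher, and 1994 of the 2396 tiles were called lower again. Leaving out K36M replicate 2 raised the count of higher tiles to 269. In all 2396 and all 162 called tiles the 2 groups did not overlap. Over all tiles, both K36M libraries lay below both K9M libraries in 28.7% and above them in 13%. The call was made on these same libraries, so the lack of overlap was largely set by it and is no separate support. The median of the losses was -27.3 points (quartiles -36.6 and -19.1) and that of the gains 22 points. The difference was at least 40 points in 445 losses and in 6 gains. In 597 of the losses the K36M mean was under 10%, and in 38 of the 162 gains the K9M mean was.

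**Figure D2:**
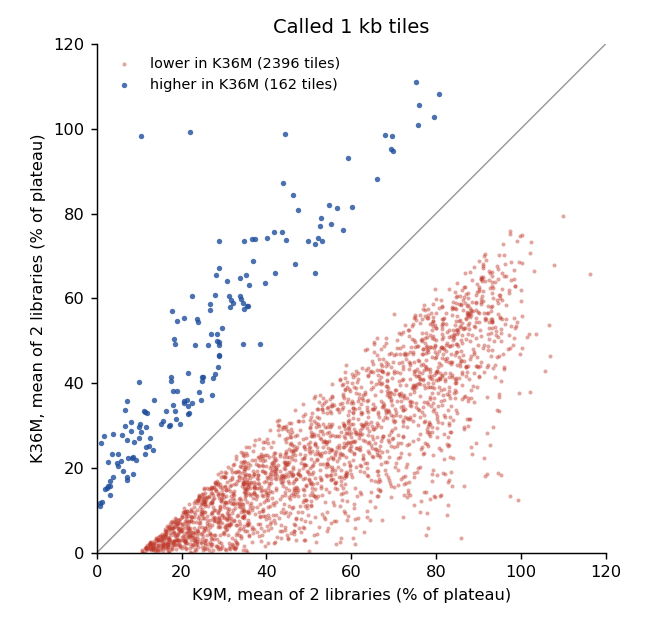
Relative level of each called tile in K9M (x axis) and K36M (y axis), each the mean of 2 libraries in percent of plateau, with tiles lower in K36M in red and higher in blue. The diagonal is equality, the 2396 red tiles reach K36M levels near 0 at K9M levels over 50%, and the 162 blue tiles lie above it.

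The WT library lay between the groups at most losses, nearer to K9M. The 4 libraries averaged 25.3%, 25.2%, 53.5% and 54.9% over the losses, and WT averaged 46.1%. Of the 2385 losses also measured in WT, WT lay nearer to the K9M mean in 1706 and nearer to the K36M mean in 679. WT lay above the K9M mean in 490 and below the K36M mean in 59. At 437 losses WT was within 5 points of K9M and at least 20 from K36M, and at 78 it was within 5 points of K36M and at least 20 from K9M. Of the 162 gains, WT lay nearer to K36M in 116 and nearer to K9M in 46. WT has no replicate, so neither mutant was tested against it here.

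Over all tiles, calls were sparse on start sites and more frequent on either side of them, but not sparse on starts at intermediate levels. Tiles holding a placed start site were lower in 84 of 10101 cases, 0.832%, and higher in 4, 0.0396%. Tiles within 1 kb of one were lower in 152 of 15669 cases. Tiles 1 to 5 kb upstream were lower in 131 of 3971 cases and tiles 1 to 5 kb downstream in 213 of 6031. Most start sites were unmethylated in every library, so the same was read at tiles at 20% to 80% in WT. There 101 of 975 tiles within 1 kb were lower, 10.4%, against 8.45% of all tiles of the class. The counts were 90 of 689 tiles 1 to 5 kb upstream, 13.1%, and 157 of 990 tiles 1 to 5 kb downstream, 15.9%. Over 100 kb away the shares were 4.99% upstream and 3.37% downstream. In tiles of that class 1 to 5 kb downstream the mean difference was -10.3 points, and -8.71 against K9M replicate 1 alone, while over 100 kb downstream it was -4.41 and -2.25 points.

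The largest losses at start sites included the promoters of Epor, Vwa7, Slc41a3, Plcg2 and Fv1. Epor encodes the erythropoietin receptor, which red cell precursors need to survive. Its start tile (chr9:21768001-21769000) stood at 18.8%, 17.5%, 60.7% and 57.0%, with 30.6% in WT (95% Wilson interval 22.9% to 40.9%). That is a difference of -40.7 points with an adjusted p of 0.000335, and 5.39e-06 against K9M replicate 1 alone. All 6 CpGs in capitals in its printed sequence were lower in each K36M library than in each K9M library, a pattern that 16.6% of all single CpGs showed (9.9% showed the opposite). These 6 CpGs make up the tile, which was named for its large difference, so their count is no separate support. The same limit holds for the CpG counts of the other named tiles below. The CpG at position -145 from the start read 3.75%, 9.33%, 29.1% and 23.3%, and the one at -210 read 14.7%, 20.4%, 90.2% and 60.6%. So the groups were apart along the whole Epor window, at K9M levels that differed from CpG to CpG.

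Vwa7, which encodes a protein with a von Willebrand factor A domain, was nearly unmethylated in K36M. Its start tile (chr17:35153001-35154000) stood at 2.4%, 2.03%, 38.9% and 44.5%, with 25.7% in WT, and the adjusted p was 4.35e-07. The CpG at position -3 read 4.58%, 8.2%, 70.5% and 68.1%, and the 6 printed CpGs were all lower in K36M. Slc41a3 encodes a magnesium transporter of the SLC41 family. Its start tile (chr6:90569001-90570000) stood at 46.2%, 33.7%, 74.3% and 77.6%, and all 7 of its printed CpGs were lower in K36M. The same direction was called at the start sites of Plcg2, the phospholipase that signals below the B cell receptor (8.63%, 8.19%, 49% and 53.9%), and of Slc7a7, a cationic amino acid transporter (18.2%, 17.4%, 68.9% and 46.3%). The Slc7a7 call was lost without K9M replicate 1. Further start sites of this kind were those of Chadl (39%, 43.9%, 80.5% and 85.4%), Arhgap45 (42.9%, 32.9%, 74.7% and 75.1%), Gm24463 (47.9%, 40.5%, 84.6% and 77.7%) and Gm39468 (32.3%, 34.3%, 65.0% and 72.7%). limma on levels did not call Slc41a3, Slc7a7, Chadl, Arhgap45, Gm24463 or Gm39468, and a coverage minimum of 20 left no Epor, Slc7a7 or Gm39468 tile to test.

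At Fv1 the library that stood apart from WT was K9M. Fv1 is a restriction gene of mice derived from an endogenous retrovirus, and its tile (chr4:147243001-147244000) stood at 4.06%, 3.11%, 69.7% and 45.3%, with 5.53% in WT (95% Wilson interval 3.49% to 8.76%). The adjusted p was 3.01e-07, and limma did not call the tile. The K9M libraries differed from each other by more than the K36M libraries did, and the groups did not overlap. As a copy of a repeat family, this gene may share reads with near copies, so its level is uncertain.

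Around regulators of blood stem cells, tiles lower in K36M were found beside the start sites rather than on them. Over all genes, too, only 84 of 10101 tiles with a placed start site inside were lower, so this placement is not particular to the list. Of 125 tiles within 10 kb of a placed start site of 19 such genes, 15 were lower and 0 were higher, where 2.11% of the 34602 tiles near any placed start site were lower and 0.078% higher. The median difference over the 125 tiles was -1.09 points, against -0.0899 over all tiles near start sites. The gene lists, here and below, were chosen with earlier results of these data known, so these shares are descriptive and no test. The 15 tiles belong to 9 genes, with 3 of them in 1 stretch at Nfix, and 12 are among the list's 20 tiles at 20% to 80% in WT. In that class 516 of all 3967 tiles near start sites were lower. The count was 16 without K9M replicate 2 and 12 without K36M replicate 2. The quasi-binomial test with unadjusted p under 0.05 gave 3 higher tiles in the list, and limma and edgeR gave 0.

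Gfi1 and Gata2 are transcription factors that stem cells require, a zinc finger repressor and a GATA factor. The tile 2.86 kb downstream of the Gfi1 start (chr5:108150001-108151000) stood at 33.4%, 26.1%, 83.5% and 89.8%, with 67.2% in WT. The difference was -56.9 points with an adjusted p of 3.96e-07, and each of its 37 CpGs was lower in both K36M libraries than in both K9M libraries. Within 1 kb of the Gfi1 start the 83 measured CpGs averaged 1.06%, 0.86%, 1.38% and 1.02%, so the contrast began beyond the unmethylated promoter. The tile 1.84 kb downstream of the more downstream of the placed Gata2 starts (chr6:88150001-88151000) stood at 11.5%, 12.3%, 47.1% and 50.1%, with 31.1% in WT, an adjusted p of 5.45e-08 and all 29 CpGs lower in K36M. A further tile (chr6:88140001-88141000) lay 3.38 kb upstream of another, more upstream placed start of Gata2 and stood at 50.0%, 51.1%, 69.1% and 67.4%, and this call was lost without K9M replicate 1. Over the 24 kb drawn around the more downstream start, 157 of 391 CpGs were lower in both K36M libraries and 4 were higher. This was the largest share of the 4 regions drawn. At Gfi1 42 of 173 were lower and 9 higher, at Cbfa2t3 57 of 204 and 5, and at Runx3 72 of 267 and 10. Each region holds called tiles, whose CpGs enter these counts. Of all single CpGs 16.6% were lower in this way and 9.9% higher. Within 1 kb of the more downstream Gata2 start the 71 CpGs averaged 0.803%, 0.429%, 1.22% and 1.18%.

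Lyl1 and Nfix are a pair of transcription factor genes on chromosome 8, a basic helix-loop-helix factor and a nuclear factor I protein. The Lyl1 tile 1.86 kb upstream stood at 20.5%, 22.6%, 50.5% and 52.2%. The 3 Nfix tiles 4.52, 5.52 and 6.52 kb upstream formed 1 stretch, and the nearest stood at 13.5%, 13.6%, 39.7% and 38.6% over 59 CpGs. Between the placed starts of these genes, 20.1 kb downstream of that of Lyl1, a tile was nearly empty of methylation in K36M (chr8:87245001-87246000). It stood at 3.66%, 3.48%, 79.5% and 92.3%, with 62.4% in WT, a difference of -82.4 points and an adjusted p of 3.07e-09, and all 15 of its CpGs were lower in K36M.

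Cbfa2t3 and Zfpm1 encode cofactors, the corepressor ETO2 and the GATA partner FOG1. The Cbfa2t3 tile 1.57 kb downstream stood at 25.9%, 24.1%, 64.3% and 59.9%. The one 1.43 kb upstream stood at 27.5%, 31.0%, 85.7% and 87.6% over 3 CpGs, and its call was lost without K36M replicate 2 or without K9M replicate 1. The Zfpm1 tile 3.46 kb downstream stood at 4.41%, 3.52%, 33.1% and 34.9%, and the one 4.46 kb downstream at 43.0%, 31.8%, 77.3% and 70.4%, a call lost without K36M replicate 2. Hlf, a bZIP factor of stem cells, had a tile 9.73 kb downstream at 29.0%, 23.6%, 71.9% and 62.4%. Prdm16, a factor needed to keep stem cells, had tiles 2.48 kb (0.865%, 1.68%, 15.4% and 16.2%) and 9.48 kb downstream (34.9%, 40.5%, 81.8% and 79.1%). The Hoxa10 tile 7.44 kb downstream stood at 1.81%, 0.755%, 12.5% and 15.7%, and its call was lost without K36M replicate 2. In each of these tiles both K36M libraries were the low ones. limma on levels did not call the upstream Gata2 tile, the Nfix tiles at 5.52 and 6.52 kb, the Zfpm1 tile at 4.46 kb or the Prdm16 tile at 9.48 kb, and a coverage minimum of 20 left the Zfpm1 tile at 3.46 kb and the upstream Cbfa2t3 tile untested.

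**Figure D3:**
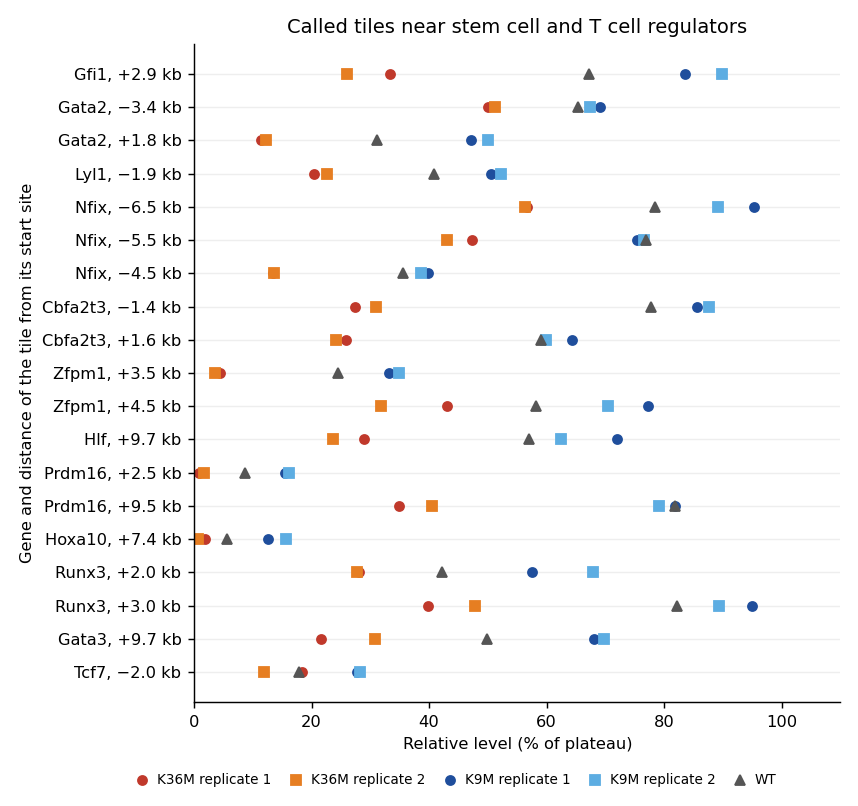
Relative level (x axis, percent of plateau) of the called tiles within 10 kb of a start site of the stem cell and T cell genes (y axis, with distance from the nearest placed start, positive downstream, so that the Gata2 rows refer to different starts), with 1 point per library. In each row both K36M points lie left of both K9M points, as at Gfi1 with 33.4% and 26.1% against 83.5% and 89.8%, and the WT triangle lies between the groups or near K9M in most rows.

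**Figure D4:**
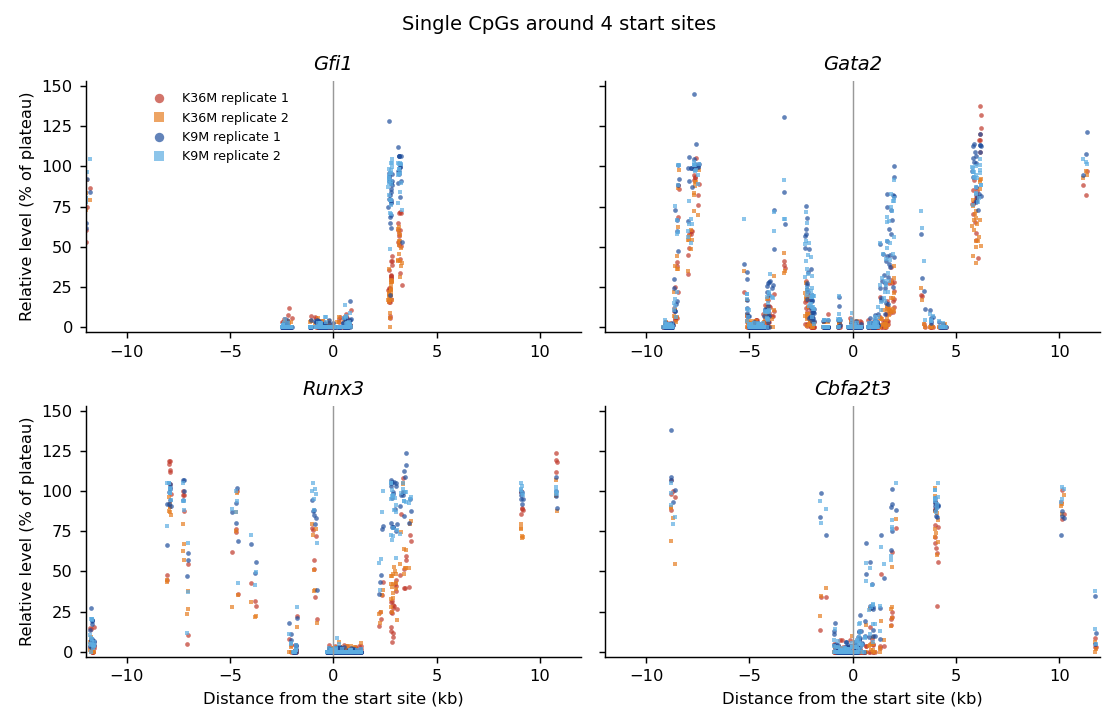
Relative level (y axis, percent of plateau) of single CpGs against distance from the start site (x axis, kb, positive downstream) at 4 genes, with 1 point per CpG and library. CpGs at the start sites are near 0 in all libraries, and 2 to 4 kb downstream of Gfi1 and Runx3 the K36M points lie below the K9M points.

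T and NK cell genes held a few tiles of the same direction. Of 45 tiles within 10 kb of 7 such genes, 4 were lower, where 2.11% of all tiles near start sites were, and in the class at 20% to 80% in WT 2 of 10 were, against 516 of 3967. The count of 4 moved with the setting (3 without K9M replicate 1 or without K36M replicate 2, 1 by limma and 8 by edgeR). Runx3, a Runt factor of cytotoxic T cells, held 2 of them. The tile 3.04 kb downstream (chr4:134711001-134712000) stood at 39.8%, 47.7%, 95% and 89.3%, with 82.2% in WT and an adjusted p of 1.32e-05, and 24 of its 26 CpGs were lower in K36M. The tile 2.04 kb downstream stood at 28.0%, 27.8%, 57.5% and 67.8%. Gata3, the GATA factor of T cells, had a tile 9.73 kb downstream at 21.6%, 30.8%, 68.0% and 69.8%. The Tcf7 tile 1.98 kb upstream, beside the gene for the Wnt effector TCF1, stood at 18.4%, 12.0%, 27.7% and 28.3%, and WT, at 17.9%, lay within the K36M range. limma called the Gata3 tile and not those of Runx3 and Tcf7, and the Tcf7 call was lost without K36M replicate 2 or K9M replicate 1. Epor held the 1 lower tile among 14 near red cell and megakaryocyte genes.

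Myeloid and B cell genes gave 0 called tiles of 22 and 0 of 24, lists too short to be told from the 2.11% lower near all start sites, and with only 4 and 3 tiles at 20% to 80% in WT. In the myeloid list 0 tiles were lower and 1 was higher with an unadjusted p under 0.05 in the quasi-binomial test, and in the B cell list 1 was lower and 1 higher. limma and edgeR called 0 in either list. Only 4 myeloid and 4 B cell genes had measured tiles, so these counts describe few loci.

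In the HoxA cluster, whose factors set position in the embryo and act in blood stem cells, losses sat at Hoxa5 and Hoxa6. Of 90 tiles within 10 kb of Hox genes 6 were lower and 0 higher, where 2.11% of all tiles near start sites were lower and 0.078% higher. In the class at 20% to 80% in WT 3 of 11 were lower, against 516 of 3967. The median difference over the 90 was 0.353 points. A run of 4 lower tiles (chr6:52153001-52160000) covered both start sites. The tile with the Hoxa5 start stood at 58.4%, 56.4%, 82.8% and 86.7% over 48 CpGs, and the tile with the Hoxa6 start at 7.45%, 6.66%, 24.5% and 24.3% over 43 CpGs. In the printed Hoxa5 sequence 8 of 28 CpGs were measured, at positions -235 to -128, and none nearer the start. These 8 were at 45.1% or more in each library, and 6 were lower in K36M. The 22 Hoxa6 CpGs ranged from 0% to 11.6%, and 14 were lower in K36M. Together these 22 averaged 0.779%, 0.867%, 5.45% and 3.97%, near the floor, so single reads weigh on this count. The CpG at -94, for example, read 0%, 0%, 4.84% and 5.82% with a lowest second count of 15. The remaining Hoxa6 tile, 0.83 kb upstream, stood at 15.9%, 11.1%, 41.5% and 53.4%, and the Hoxa3 tile 5.43 kb upstream at 1.06%, 1.28%, 29.6% and 28.8%. With an unadjusted p under 0.05 the quasi-binomial test gave 10 lower and 13 higher Hox tiles, while limma and edgeR called 0 higher. limma did not call the Hoxa5 start tile, and the Hoxa3 tile could not be tested at a coverage minimum of 20.

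Genes of the methylation machinery held 1 or 2 called tiles per list, where 2.11% of all tiles near start sites were lower and so fewer than 1 tile of each list would be at that share. Among 27 tiles near writers, erasers and readers of lysine 36 methylation 1 was lower, 2.61 kb downstream of the start of Kdm2b, a lysine 36 demethylase (37.1%, 36.6%, 87.2% and 86.5%), and this call was lost without K9M replicate 1. Among 25 tiles near the lysine 9 genes 2 were lower, both beside Ehmt2, which encodes the lysine 9 methyltransferase G9a. They stood at 29.8%, 34.1%, 64.8% and 71.3% (1.92 kb upstream) and at 48.4%, 54.9%, 79.0% and 89.4% (5.59 kb downstream), and limma called neither. Among 29 tiles near DNA methylation enzymes 1 was lower, 8.24 kb upstream of the nearest placed start of the de novo methyltransferase gene Dnmt3a, at 17.3%, 21.4%, 63.1% and 69.1%. The median differences of the 3 lists were -0.169, -0.0462 and -0.181 points.

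Imprinted genes, methylated on the copy from a single parent, and germline genes, silenced by methylation in blood cells, gave 0 called tiles of 54 and 0 of 30. Near all start sites 2.11% of tiles were lower, and these lists are too short to be told from that share. Of the 54 imprinted tiles 21 were at 20% to 80% in WT, and of the germline tiles 4. In that class 516 of all 3967 tiles near start sites were lower. The mean of the imprinted tiles was 57.0% in K36M and 58.8% in K9M, and that of the germline tiles 91.4% and 90.4%. With an unadjusted p under 0.05 the quasi-binomial test gave 2 lower and 1 higher imprinted tiles and 1 lower and 1 higher germline tiles. edgeR called 1 imprinted tile lower and limma called 0.

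The largest losses held no placed start site. Few tiles held one, 10101 of all 154250 tested and 84 of the 2396 losses, so this does not set the largest losses apart. The tile 2.58 kb upstream of Pqlc3, a PQ loop repeat gene (chr12:17009001-17010000), stood at 7.32%, 17.5%, 107% and 91.5%, a difference of -86.9 points. Cmtm6, which keeps the checkpoint ligand PD-L1 on the cell surface, had a tile 9.18 kb downstream at 15.2%, 22.5%, 94.6% and 94.8%. Lgals3, the gene of galectin-3, had one 22 kb downstream at 8.55%, 9.98%, 76.5% and 79.5%. Irf2bp1, a corepressor gene, had one 6.09 kb downstream at 8.05%, 11.3%, 80.4% and 72.1%. Tubb3, a neuronal tubulin gene, had one 13 kb upstream at 27.5%, 23.5%, 98.1% and 87.2%. The other two lay at chr2:167667001-167668000 (11.3%, 20.1%, 81.1% and 86.6%) and chr9:65377001-65378000 (10.5%, 15.6%, 79.6% and 80.1%). Every CpG of these 7 tiles was lower in both K36M libraries than in both K9M libraries.

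The gains were fewer, and at 4 of the 5 largest WT lay nearer to K36M. The tile at chr7:70947001-70948000 stood at 105%, 93.9%, 0.653% and 43.4%, with 49% in WT. The tile at chr1:172880001-172881000 stood at 89.0%, 85.4%, 49.6% and 38.4%, with 92.0% in WT. Those at chr12:45818001-45819000 (73.8%, 73.4%, 45.7% and 23.7%, WT 84.5%) and chr17:69549001-69550000 (67.0%, 79.9%, 35.6% and 22.1%, WT 69.7%) had the same order. The tile 66.4 kb downstream of Gfra1 (chr19:58463001-58464000) stood at 107%, 90.2%, 53.6% and 35.2%, with 81.7% in WT, and its call was lost without K9M replicate 2. None of the 5 was called by limma.

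Losses were mostly single tiles, with lower levels around them. Chained at gaps of at most 5 kb, they formed 1999 single tiles, 154 runs of 2, 22 of 3, 4 of 4 and 1 of 7. The run of 7 (chr8:122891001-122907000) held 7 lower tiles of 9 measured, far upstream of Gse1, and averaged 15.4%, 15.4%, 46.9% and 48.6% with 38.4% in WT. A run of 4 lay 27.3 to 34.3 kb upstream of Pitpnm2, a phosphatidylinositol transfer protein gene, and averaged 24.9%, 23.1%, 50.5% and 53.6%. Leaving out 1 library ended the call at 2 of the 7 tiles of the first run and at 1 of the 4 of the second. Other runs of 4 lay at chr15:76287001-76297000 (16.1%, 18%, 44.8% and 41.9%) and chr4:130459001-130466000 (44.3%, 41.9%, 75.5% and 74.8%), the latter with 3 of 4 calls lost in that way. Uncalled tiles at 20% to 80% in WT were further below K9M near a called loss than far from it. The mean difference was -14.3 points at 1 kb (170 tiles), -8.33 at 5 to 9 kb (411 tiles) and -5.26 in the farthest bin, from 100 kb out (2551 tiles). Against K9M replicate 1 alone these were -12.5, -6.44 and -3.39 points. Uncalled tiles near a loss include tiles just short of the call, so no test was made of this gradient.

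**Figure D5:**
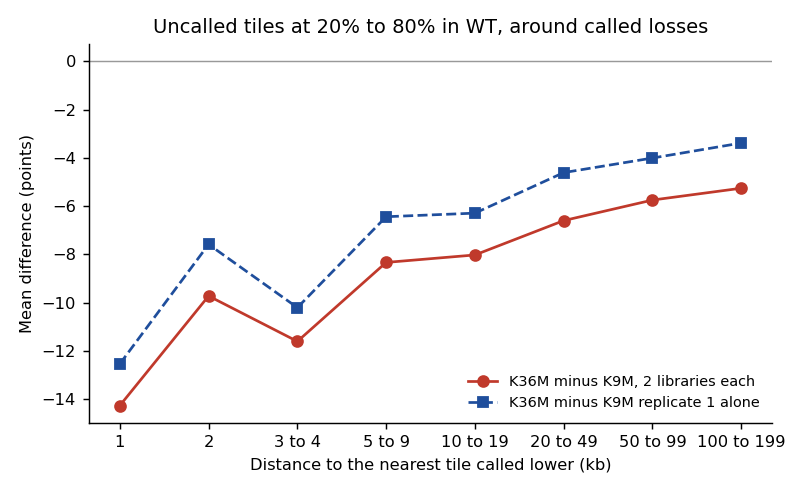
Mean K36M minus K9M difference in points (y axis) of uncalled tiles at 20% to 80% in WT, by distance to the nearest tile called lower (x axis, kb), with both K9M libraries (circles) or K9M replicate 1 alone (squares). The line rises from -14.3 points at 1 kb to -5.26 points in the farthest bin, with the 2 kb point at -9.72 above the next bin at -11.6.

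Over all tiles, losses per 1000 were lowest on chromosome 1, at 9.82, and highest on chromosome 11, at 22.4. In tiles at 20% to 80% in WT the order differed, with 60.8 on chromosome 13 and 63.4 on chromosome 1 at the low end and 105 on chromosome 11 and 113 on chromosome 17 at the high end. The call rule cuts through a continuous range. A tile just inside the size limit stood at 10.5% in K36M and 20.5% in K9M, and one just outside at 21.7% and 31.7%. A tile just inside the p limit stood at 27.1% and 44.9%, and one just outside at 43.7% and 77.8%, a larger difference.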

How the data were processed

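Per the labels' protocols, DNA from pellets of sorted cells was made into libraries by reduced representation bisulfite sequencing from 10 to 50 ng, with 12 amplification cycles. cutadapt, BSMAP and the mm9 build are listed in the submitters' processing notes, without versions, settings or a word on deduplication. The deposited tables hold per CpG a methylation fraction and a total read count. The fraction times the total, rounded, gave the methylated count, whole within 0.01 for 100% of CpGs in 4 libraries and 89.2% in K9M replicate 2. The second count was the total minus the methylated count, and the deposited total in K9M replicate 2, which was read as another unit from the values. Second counts summed to 86444670 and 106293582 in K36M and 86941557 and 111738339 in K9M.

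Per tile, a logistic model of methylated against second counts with the log plateau as offset was fitted to the 4 libraries. Its dispersion was moderated with limma 3.58.1 (squeezeVar, trend in log mean count, R 4.3.3), held at 1 or above, and tested by F test with Benjamini-Hochberg adjustment. That floor was exceeded in 23.1% of tiles. In the other tiles the test took counting error as the only spread. Simulated data with known changes were used to check the fit. limma on levels and edgeR 4.0.16 were alternatives, with other coverage minimums, tile sizes, plateaus and left-out libraries. Wilson intervals cover counting error only. In a check, 1621 already placed promoters with few listed CpGs were left out in turn and searched for again between their placed neighbours. A single place was found for 1510, and it was the same position in each case. The same CpG spacing served both searches, so this check is a limited one. Named tiles were the 8 largest losses and 5 largest gains with at least 5 CpGs and no library above 130%, the 6 longest runs, the 10 largest losses at start sites, and called tiles at listed genes. Naming listed genes within 10 kb was decided after their values were seen. The groups compared and the gene lists were chosen with earlier results of these data known.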

Additional observations from a re-analysis of the deposited data

Results flagged for a closer look

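Mitochondrial CpGs lie outside the autosomal comparison. Their relative level was 0.515% in K36M replicate 1 (95% Wilson interval 0.455% to 0.583%), above the 0.359% of the WT library (interval 0.323% to 0.399%). It was 0.371% in K36M replicate 2, 0.398% in K9M replicate 1 and 0.316% in K9M replicate 2, so the groups overlapped.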

How the results depend on the processing

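The count of tiles lower in K36M (2396) ran from 1899 to 2434 and that of higher tiles (162) from 118 to 269 when 1 library was left out, the highest without K36M replicate 2, which gave 2058 lower. limma on levels gave 1137 lower and 50 higher, edgeR 3819 and 322, and an adjusted p under 0.01 gave 1596 and 87. A difference of at least 20 points left 95 higher tiles. Levels and totals as deposited gave 0 and 0 in the quasi-binomial test (758 lower and 58 higher at an unadjusted p under 0.05), a pooled difference of -4.87 and a median of -19.9 points, since K9M replicate 2 is then in another unit. Lower tiles made up 88.4% to 97.3% of calls in the settings that gave any. The other coverage minimums, tile definitions and the X chromosome kept both counts within 1.5 times.

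With the replicate number as a block, 397 tiles were lower and 11 higher, 8 of them lower near stem cell regulators. The replicate differences of the groups correlated at 0.0752 over tiles, and the labels give the numbers no shared origin, so they only name samples.

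The median tile difference (-1.47 points) was -0.35 when the top 40% of tiles set the plateau and -0.44 in tiles with 5 or more CpGs, and ran from -2.96 to -0.23 with 1 library left out. The pooled difference (-0.68) was 0.116 with the 40% plateau, the only reversed value, and -1.42 as a mean of CpG levels, and ran from -0.874 to -0.454 with 1 library left out. The mean at 20% to 80% in WT (-7.13) ran from -9.11 to -5.49 with classes redrawn. Of the 73 named tiles, 42 fell short under the block, 34 by limma, 0 by edgeR, 10 when K9M replicate 1 was dropped and 6 when K9M replicate 2 was, and 12 held too few CpGs at a coverage minimum of 20. The causes were not tested. Each group has 2 libraries, and 3-CpG tiles at low depth carry the widest errors.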
